A study of Homo sapiens with 3 samples.

Results

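The genes described are 9 receptors of the tumour necrosis factor (TNF) receptor superfamily, TNFRSF11B, FAS, TNFRSF10A, TNFRSF10B, TNFRSF10C, TNFRSF10D, TNFRSF1A, TNFRSF12A and TNFRSF21, together with the ligand TNFSF10. These 10 genes, of 19775 represented on the arrays, were chosen by gene symbol, and TNFRSF11B and FAS were among them because they differed between these same arrays. Their differences are therefore given as a description. Every probe set annotated to 1 of the 10 genes and to no other gene was taken, 27 in all. Signal was above the floor of 76.9 units, the median of all values, on at least 1 array for 20 of the 27 and on all 3 arrays for 16.

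The arrays were made from untreated cultures of 3 related human cell lines, 1 array each. These were the cisplatin-resistant subline MHCC97L/CisR, the doxorubicin-resistant subline MHCC97L/DoxR, and MHCC97Low, the metastatic hepatocellular carcinoma line from which both were derived. The sample names C8 and D5 stand for the sublines in the study's design, and the labels do not say whether a subline is 1 clone. RNA was hybridised to U133 Plus 2.0 arrays, and the question put by the study was which genes differ between each resistant subline and the parental line. Without replicate arrays, the spread between cultures is unknown and no difference could be tested. Several probe sets of 1 gene repeat a measurement on the same RNA and do not replace cultures. Names ending in _s_at or _x_at mark probe sets whose probes can match several transcripts or other genes. Genes that differed by 2-fold or more were called, and a fold is given as "at least" where the lower of its values did not exceed the floor.

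TNF receptors are cell-surface proteins with cysteine-rich extracellular domains that bind trimeric ligands. The death receptors FAS, TNFRSF10A, TNFRSF10B, TNFRSF1A and TNFRSF21 carry an intracellular death domain, through which FAS and the TRAIL receptors recruit FADD and caspase-8. Decoy receptors bind the ligand without passing on a death signal, either because they are secreted (TNFRSF11B, osteoprotegerin) or because they lack a working death domain (TNFRSF10C and TNFRSF10D). Hepatocytes are known for their sensitivity to FAS, and DNA-damaging drugs can raise FAS and TNFRSF10B through p53.

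Promoter sequence is shown for 2 genes of the group, because FAS was past 2-fold in both sublines and because all 3 probe sets of TNFSF10 were higher in the cisplatin-resistant array than in the parental array. Each sequence is the 250 bases before a RefSeq start (GRCh38.p14), 5′ to 3′ on the gene's strand. For FAS, at chr10:88990548-88990797 on the plus strand, the most upstream of 3 listed starts was used and capitals mark a GC box, GGGCGG. For TNFSF10, at chr3:172523431-172523680 on the minus strand, capitals mark a TATA box, TATAAA.
FAS: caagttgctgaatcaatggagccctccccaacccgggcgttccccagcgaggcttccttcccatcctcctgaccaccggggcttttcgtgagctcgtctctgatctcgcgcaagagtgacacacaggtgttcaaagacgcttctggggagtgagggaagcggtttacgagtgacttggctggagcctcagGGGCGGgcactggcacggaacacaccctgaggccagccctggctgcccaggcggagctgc
TNFSF10: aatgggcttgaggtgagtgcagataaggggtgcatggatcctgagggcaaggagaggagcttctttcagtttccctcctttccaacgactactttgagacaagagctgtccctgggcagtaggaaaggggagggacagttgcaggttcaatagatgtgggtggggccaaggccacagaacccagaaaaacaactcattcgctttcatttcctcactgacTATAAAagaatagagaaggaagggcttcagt
These motifs and the AP-1 site TGACTCA were searched on both strands. Of 27305 promoters of the same length, 42.3% held a GC box, 11.1% the TATA box and 4.16% the AP-1 site. The FAS window held 1 GC box and neither of the others, and the TNFSF10 window held 1 TATA box and neither of the others. A match is a run of letters and not evidence of binding.

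TNFRSF11B and FAS were higher in both sublines than in the parental line, and no member was 2-fold lower in either. Of the 9 members with a value above the floor, 2 were called higher in the cisplatin-resistant array, where 2.83% of 12710 compared genes were called higher and 2.58% lower. The same 2 were called higher in the doxorubicin-resistant array, where 2.98% of 12605 genes were called higher and 2.74% lower. Since these contrasts led to the choice of TNFRSF11B and FAS, nothing is read from the counts. Both comparisons use the same parental array and are not independent. The median log2 difference over the 9 genes was 0.29 in the cisplatin-resistant array, against 0.02 over all compared genes, and -0.08 in the doxorubicin-resistant array, against 0.00 over all compared genes.

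**Figure D1:**
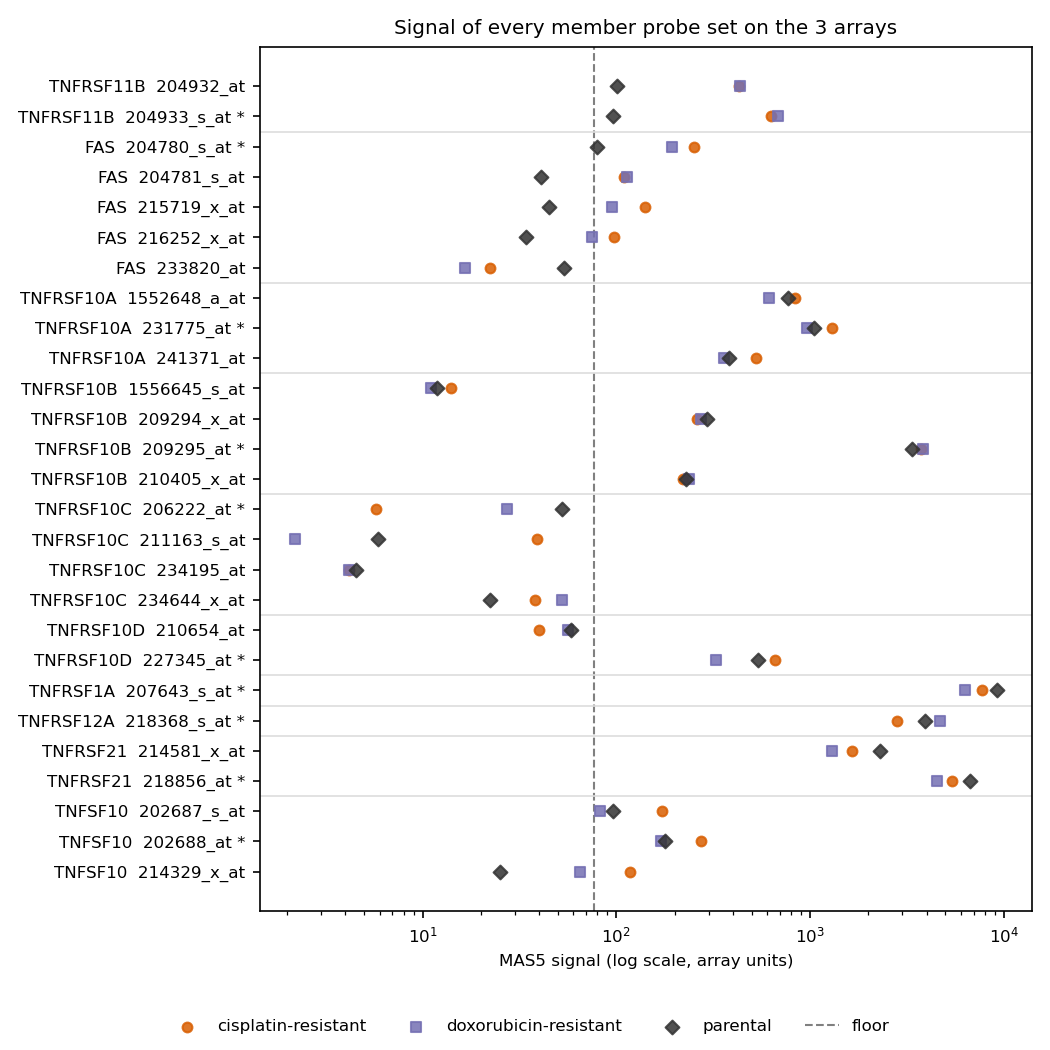
MAS5 signal (log axis, array units) of the 27 probe sets of the 10 genes on the cisplatin-resistant, doxorubicin-resistant and parental arrays, with the floor of 76.9 as a dashed line and an asterisk at the probe set that stands for a gene. Both TNFRSF11B probe sets lie at 429 to 687 units in the sublines, against 101 and 96.7 units in the parental array.

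TNFRSF11B encodes osteoprotegerin, a secreted decoy receptor that binds the ligands RANKL (TNFSF11) and TRAIL (TNFSF10). Its probe set 204933_s_at had a signal of 628 in the cisplatin-resistant array and 687 in the doxorubicin-resistant array, against 96.7 in the parental array. Its other probe set, 204932_at, had 429 in the cisplatin-resistant array and 436 in the doxorubicin-resistant array, against 101 in the parental array. Both probe sets thus had the sublines close to each other and the parental array lowest, just above the floor. The cisplatin-resistant array was 6.49-fold and 4.24-fold above parental by these probe sets, and the doxorubicin-resistant array 7.10-fold and 4.31-fold. The sublines differed from each other by log2 0.13 and 0.02 (doxorubicin-resistant over cisplatin-resistant). TNFRSF11B held rank 7 from the top among 12710 genes in the cisplatin-resistant and rank 8 among 12605 in the doxorubicin-resistant comparison. The RANKL gene TNFSF11 was under the floor on all 3 arrays by both probe sets (20.9, 12.6 and 21.4 units by the brighter, in the cisplatin-resistant, doxorubicin-resistant and parental arrays).

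The receptor for RANKL, RANK (TNFRSF11A), which osteoprotegerin competes with, was measured by 2 probe sets. The brighter, 238846_at, had 223 units in the cisplatin-resistant array and 451 in the doxorubicin-resistant array, against 192 in the parental array, 1.16-fold and 2.34-fold above parental. The other, 207037_at, had 108 units in the cisplatin-resistant array and 133 in the doxorubicin-resistant array, against 115 in the parental array. The doxorubicin-resistant array was the highest by both, but past 2-fold only by the brighter. With the median of its neighbours on the chromosome subtracted, TNFRSF11A was at log2 1.10 in the cisplatin-resistant over parental comparison, against 0.21 without, and at 0.18 in the doxorubicin-resistant over cisplatin-resistant comparison, against 1.01 without.

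FAS, also called CD95, is the death receptor for FAS ligand. By probe set 204780_s_at it had a signal of 253 in the cisplatin-resistant array and 194 in the doxorubicin-resistant array, against 79.7 in the parental array. The parental value lay just above the floor of 76.9 units, and the sublines were 3.18-fold and 2.43-fold above it. Probe set 204781_s_at had 109 units in the cisplatin-resistant array and 114 in the doxorubicin-resistant array, against 41.0 in the parental array. Probe set 215719_x_at had 141, 94.7 and 44.8 units in the same order, and 216252_x_at had 97.6, 74.6 and 34.1 units. All 4 probe sets had the parental array lowest, but 3 of them had it under the floor. Those 3 gave only bounds, of at least 1.42-fold, 1.83-fold and 1.27-fold for the cisplatin-resistant over parental difference, and no bound reached 2-fold. For doxorubicin-resistant over parental the bounds were at least 1.48-fold by 204781_s_at and 1.23-fold by 215719_x_at, and 216252_x_at was under the floor on both arrays.

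With the floor lowered to 19.4 units, the 25th percentile of all values, the 4 FAS probe sets were 2.66-fold to 3.18-fold higher in the cisplatin-resistant array and 2.11-fold to 2.77-fold higher in the doxorubicin-resistant than in the parental array. The remaining probe set, 233820_at, was under the floor of 76.9 on every array, at 22.4, 16.6 and 53.5 units in the cisplatin-resistant, doxorubicin-resistant and parental arrays, with the parental array highest. At the lower floor its difference was 2.39-fold lower for the cisplatin-resistant array and at least 2.76-fold lower for the doxorubicin-resistant one. FAS ligand (FASLG) was under the floor of 76.9 on all 3 arrays by both of its probe sets.

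**Figure D2:**
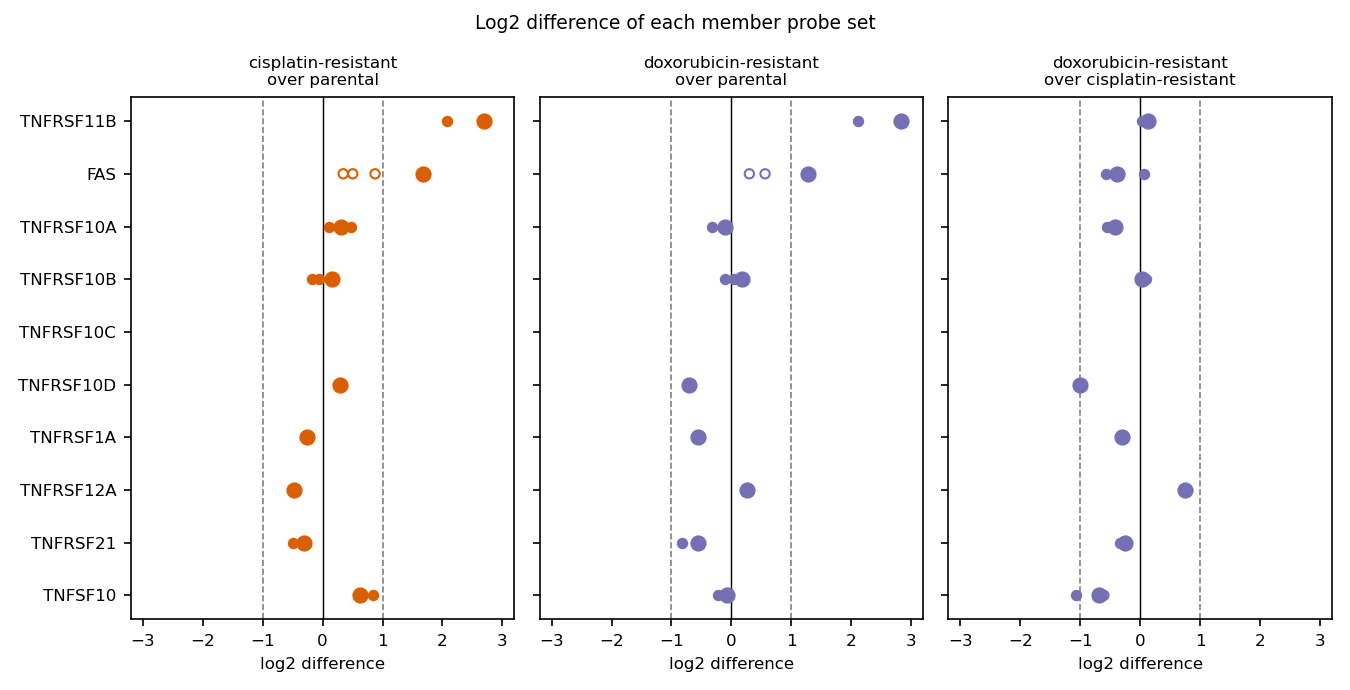
Log2 difference (horizontal axis) of each compared probe set of the 10 genes in the 3 comparisons, with large symbols for the probe set that stands for the gene, open symbols for bounds set by the floor, and dashed lines at 2-fold. TNFRSF11B lies at 2.08 and 2.70 for cisplatin-resistant and at 2.11 and 2.83 for doxorubicin-resistant over parental, and TNFRSF10C has no symbol because it was under the floor on all arrays.

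The receptors of TRAIL lie side by side on chromosome 8. The death receptor TNFRSF10B (DR5) had a signal of 3758 in the cisplatin-resistant array and 3816 in the doxorubicin-resistant array, against 3369 in the parental array by 209295_at, log2 differences of 0.16 and 0.18 from parental. Its dimmer probe sets 209294_x_at and 210405_x_at were at -0.18 and -0.07 in the cisplatin-resistant and at -0.11 and 0.04 in the doxorubicin-resistant comparison. The probe sets did not share a direction, and their largest difference from parental was 1.13-fold.

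The other TRAIL death receptor, TNFRSF10A (DR4), had 1299 units in the cisplatin-resistant array and 966 in the doxorubicin-resistant array, against 1045 in the parental array by 231775_at. All 3 of its probe sets put the cisplatin-resistant array highest and the doxorubicin-resistant array lowest. Log2 differences over parental ran from 0.11 to 0.47 in the cisplatin-resistant array and from -0.32 to -0.07 in the doxorubicin-resistant array. Between the sublines they ran from -0.55 to -0.43 (doxorubicin-resistant over cisplatin-resistant).

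The decoy TNFRSF10D (DcR2) had 659 units in the cisplatin-resistant array and 328 in the doxorubicin-resistant array, against 538 in the parental array by 227345_at. The doxorubicin-resistant array was the lowest, 1.64-fold below parental and 2.01-fold below the cisplatin-resistant array. That put TNFRSF10D just past 2-fold as the only member called in the comparison of the sublines, where 3.3% of 12604 genes were called lower in the doxorubicin-resistant array and 3.05% higher. The call was lost when each array was scaled to the same median signal (log2 -0.90), by quantile normalization (-0.99) and with a pseudocount of 16 in place of the floor (-0.97). The second TNFRSF10D probe set, 210654_at, was under the floor on every array. TNFRSF10C (DcR1), a decoy anchored in the outer membrane leaflet by a lipid tail, was under the floor on all 3 arrays by its 4 probe sets, the highest value being 52.7 units, so it was not compared. At the floor of 19.4 units its probe sets went in opposite directions in the doxorubicin-resistant over parental comparison, with 234644_x_at 2.37-fold higher and 206222_at 1.93-fold lower. In the cisplatin-resistant comparison 206222_at was at least 2.71-fold lower, 211163_s_at at least 2.01-fold higher and 234644_x_at 1.73-fold higher.

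TNFSF10 encodes TRAIL, the ligand that all of the TNFRSF10 receptors and osteoprotegerin bind. By probe set 202688_at it had 275 units in the cisplatin-resistant array and 170 in the doxorubicin-resistant array, against 179 in the parental array. By 202687_s_at it had 172 units in the cisplatin-resistant array and 82.5 in the doxorubicin-resistant array, against 96.6 in the parental array, and by 214329_x_at 117, 65.4 and 25.03 units. The cisplatin-resistant array was highest by all 3 probe sets, at 1.53-fold, 1.79-fold and at least 1.52-fold over parental, the last being a bound. The doxorubicin-resistant array was 1.05-fold and 1.17-fold below parental by the first and second, and the last was under the floor on both arrays. Between the sublines, the doxorubicin-resistant array was 1.62-fold, 2.09-fold and at least 1.52-fold lower. At the floor of 19.4 units, 214329_x_at was 4.68-fold higher in the cisplatin-resistant array than in parental. It was also 2.61-fold higher in the doxorubicin-resistant array than in parental, the opposite direction to the other probe sets. TNFSF10 is known as an interferon-induced gene.

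The receptors with the brightest signals in the group were within 2-fold of parental in both sublines. TNFRSF1A, the main receptor of TNF, had 7727 units in the cisplatin-resistant array and 6283 in the doxorubicin-resistant array, against 9211 in the parental array, with both sublines below parental (log2 -0.25 and -0.55). TNFRSF21 (DR6) had 5395, 4504 and 6665 units in the same order by 218856_at and 1643, 1293 and 2304 units by 214581_x_at. Both probe sets again had parental highest and the doxorubicin-resistant array lowest, with log2 differences of -0.31 and -0.49 in the cisplatin-resistant array and -0.57 and -0.83 in the doxorubicin-resistant array. TNFRSF12A (Fn14), the receptor of TWEAK and a gene induced by growth factors, had 2809 units in the cisplatin-resistant array and 4695 in the doxorubicin-resistant array, against 3918 in the parental array. It was 1.40-fold lower in the cisplatin-resistant array and 1.20-fold higher in the doxorubicin-resistant array, 1.67-fold apart. TNFRSF1A and TNFRSF12A have 1 probe set each, so no second reading of them was had.

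The share of genes past 2-fold differed with their signal. Among the dimmest of 3 equal groups of genes by mean log2 signal, which holds TNFRSF11B, FAS and TNFSF10, 9.56% were called in the cisplatin-resistant comparison and 9.54% in the doxorubicin-resistant comparison. Among the brightest, which holds TNFRSF10B, TNFRSF1A, TNFRSF12A and TNFRSF21, 2.12% and 2.36% were called.

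**Figure D3:**
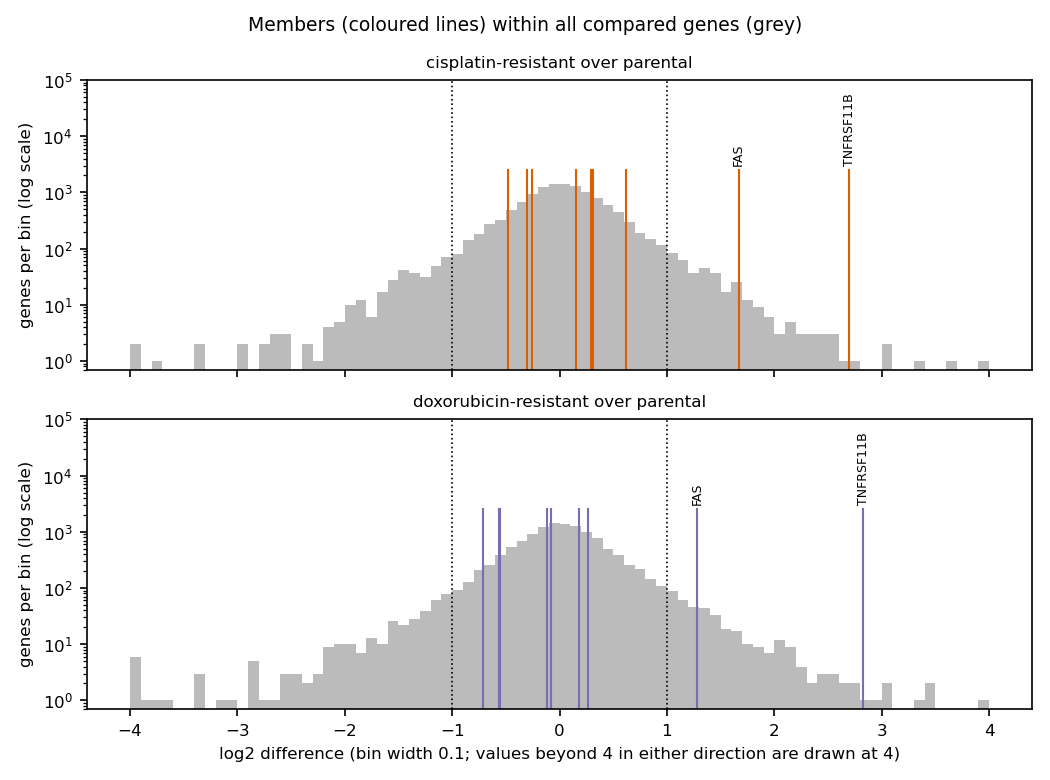
Number of compared genes (log axis) by log2 difference in bins of 0.1 (grey), for cisplatin-resistant over parental (12710 genes) and doxorubicin-resistant over parental (12605 genes), with coloured lines at the 9 compared members and dotted lines at 2-fold. TNFRSF11B lies far out in the upper tail at 2.70 and 2.83, FAS at 1.67 and 1.28, and the other 7 lie between -0.72 and 0.62.

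Genes with a like pattern were sought among the 11126 genes above the floor on all 3 arrays, by the Euclidean distance between the pair of log2 differences from parental. A likeness over 3 arrays rests on 2 numbers a gene. By the probe set that stands for FAS, at 79.7 units in the parental array and so just above the floor, the nearest gene was from the same superfamily. This was TNFRSF1B (TNFR2), the TNF receptor without a death domain, at a distance of 0.030. It had 376 units in the cisplatin-resistant array and 296 in the doxorubicin-resistant array, against 120 in the parental array, 3.12-fold and 2.45-fold above parental, by its only probe set. Then came FRMD4B (0.115), HSD17B8 (0.120), CEACAM5 (0.147) and GPR160 (0.169). No gene lay as near to TNFRSF11B, but it lay far out in the upper tail, where genes are few. The larger distances therefore do not mark its pattern as distinct. The nearest were CRIP1 at 0.807, LUM at 0.922, LRATD2 at 0.925, TBC1D22B at 0.948 and TMEM176B at 1.13.

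LUM, the proteoglycan lumican, is also in the list of fibroblast markers, and TNFRSF11B is known to be made by stromal cells. The summed signal of the 6 fibroblast markers was 3305 in the cisplatin-resistant array and 1528 in the doxorubicin-resistant array, against 742 in the parental array, most of it from LUM (2632, 1167 and 258 units in the same order). COL1A1 had 511, 242 and 309 units, and DCN had 86.0, 67.4 and 59.2 units, above the floor in the cisplatin-resistant array only. COL1A2, COL3A1 and PDGFRB were under the floor on all 3 arrays. The part of such cells in the TNFRSF11B values was not tested. FAS and TNFRSF1B are also abundant in leukocytes. The leukocyte markers PTPRC, LYZ, CD14 and HLA-DRA were under the floor on all 3 arrays. The T cell marker CD3E had 86.6, 78.7 and 49.7 units, above the floor in the sublines only, and the B cell marker CD79A had 275, 382 and 377 units. The summed signal of the 6 markers was 445, 530 and 523, and the part of leukocytes in the FAS and TNFRSF1B values was not tested. Of 4 endothelial markers, VWF and CDH5 were under the floor on every array, PECAM1 had 802, 827 and 1052 units and KDR 285, 190 and 199.7 units, and the sum was 1105, 1028 and 1306. Of the 9 hepatocyte markers with a probe set, 7 were above the floor in the cisplatin-resistant array and 6 in the doxorubicin-resistant array, against 7 in the parental array, with summed signals of 2194, 7020 and 14390. ALB was under the floor in the cisplatin-resistant, FGB in the doxorubicin-resistant and APOA1 in both the doxorubicin-resistant and parental arrays, and APOA2 on all 3. The keratins KRT8 and KRT18 were bright on every array (at least 23132 units), and EPCAM was under the floor on all 3. KRT19 had 12819, 12056 and 8851 units, and the cadherin CDH1 had 1708, 3062 and 798 units, with both sublines above parental as for TNFRSF11B and FAS. In RNA of whole cultures, a different share of cells expressing a gene and a different level per cell cannot be told apart.

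Neighbouring genes on the chromosome were examined for TNFRSF11B, FAS and the TNFRSF10 cluster, since the sublines are derived lines. The 10 compared genes nearest to TNFRSF11B on chromosome 8, 5 on each side, had a median log2 difference of 0.13 in the cisplatin-resistant array and 0.14 in the doxorubicin-resistant array. Only ENPP2, the lysophospholipase autotaxin, was past 2-fold among them, at -1.13 in the cisplatin-resistant array. The 10 around FAS on chromosome 10 had medians of 0.08 and 0.32, ranging from -0.54 to 0.80 and from -0.71 to 0.78. They include a row of interferon-induced IFIT genes, whose cisplatin-resistant over parental values were -0.02 for IFIT2, -0.19 for IFIT3, 0.80 for IFIT1 and 0.10 for IFIT5. The doxorubicin-resistant over parental values were -0.45, -0.21, 0.36 and 0.60 in the same order. The 10 around the TNFRSF10 cluster had medians of -0.31 and -0.01, with none past 2-fold. Both FAS and TNFRSF11B stood above every one of their shown neighbours in both sublines. Since these 2 genes were chosen for their differences on these same arrays, nothing is read from that.

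**Figure D4:**
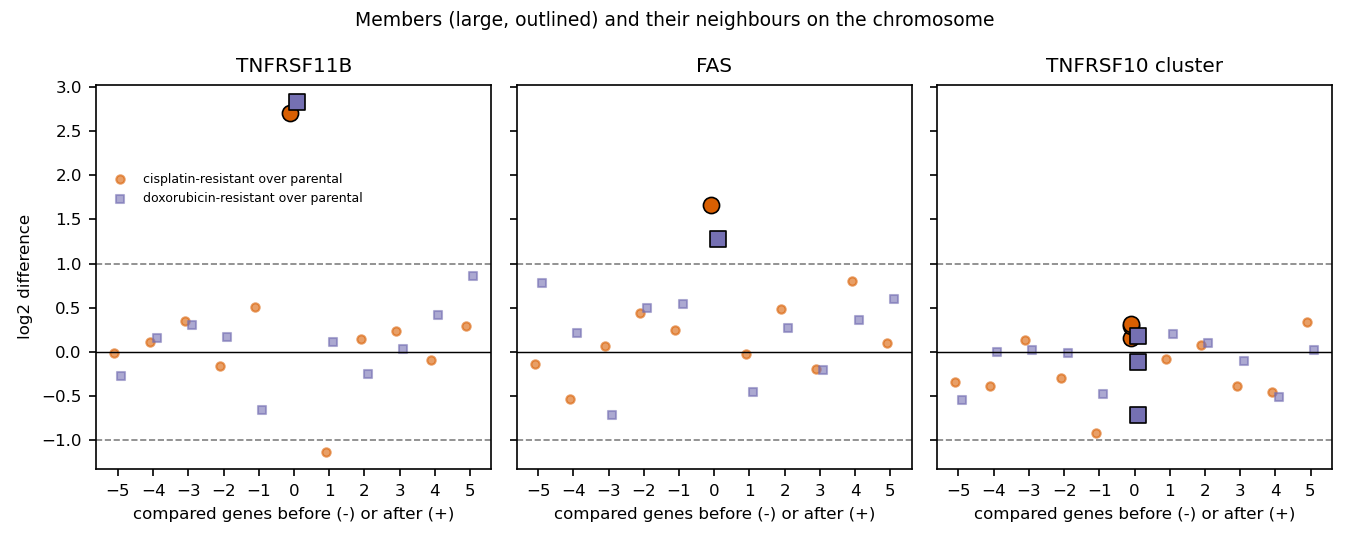
Log2 difference (vertical axis) of TNFRSF11B, FAS and the 3 compared genes of the TNFRSF10 cluster (large, outlined) and of the 5 compared genes before and after each (small), over parental for the cisplatin-resistant (circles) and doxorubicin-resistant (squares) subline, in chromosome order with no distance scale. The compared genes differ slightly between the comparisons, and the neighbours of FAS lie between -0.71 and 0.80.

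Beyond the members, the superfamily had further receptors that were higher in a subline. Of 20 other TNF receptor genes, 19 had a probe set and 12 were compared with parental. In the cisplatin-resistant array 2 were higher and 1 lower, with a median of 0.20, and in the doxorubicin-resistant array 4 were higher and none lower, with a median of 0.14. Over all compared genes, 2.83% were higher and 2.58% lower in the cisplatin-resistant comparison, and 2.98% higher and 2.74% lower in the other. TNFRSF18 (GITR), a costimulatory receptor of T cells, had 647 units in the cisplatin-resistant array and 741 in the doxorubicin-resistant array, against 264 in the parental array, 2.45-fold and 2.81-fold above parental. Its other probe set, 223851_s_at, had 367, 373 and 201 units in the same order, with both sublines higher but under 2-fold. TNFRSF25 (DR3), a death receptor, had 88.1, 235 and 51.5 units and was at least 3.05-fold higher in the doxorubicin-resistant array. It was also higher there by 219423_x_at (at least 2.94-fold), 210847_x_at (at least 1.99-fold) and 211841_s_at (at least 1.58-fold). The probe set of TNFRSF25 with neither the _s_at nor the _x_at suffix, 216042_at, had the opposite sign. It had 57.4 units in the doxorubicin-resistant array, under the floor, against 84.1 units in the parental array, a bound of at least 1.09-fold lower. With the second brightest probe set of each gene that has several, the calls in this list numbered 0 in the cisplatin-resistant comparison and 1 in the doxorubicin-resistant comparison. TNFRSF1B and RELT have 1 probe set each and leave the list in that setting, so part of the drop is genes removed. With the floor at the 75th percentile of all values, the calls numbered 0 in both comparisons. With the median over all probe sets of a gene they numbered 3 and 2. There TNFRSF11A (log2 0.72) and TNFRSF25 (0.996) fell under 2-fold in the doxorubicin-resistant comparison. RELT, a receptor of lymphoid tissue, was 2.04-fold lower in the cisplatin-resistant array (213 against 435 units in the parental array) and 1.20-fold lower in the doxorubicin-resistant array. Its call was lost with a pseudocount of 16 (log2 -0.98) and with the median of its neighbours subtracted (-0.92).

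Ligands were mostly dim. Of 17 other TNF superfamily ligands, 15 had a probe set, of which 7 were compared in the cisplatin-resistant comparison and 5 in the doxorubicin-resistant comparison. The only call was EDA, the ectodermal ligand ectodysplasin, lower in the cisplatin-resistant array, at 154 units in the cisplatin-resistant array and 368 in the doxorubicin-resistant array, against 627 in the parental array. By its second brightest probe set, 211130_x_at, EDA was past 2-fold in both sublines, 2.66-fold lower in the cisplatin-resistant array and 2.33-fold lower in the doxorubicin-resistant one. TNF itself was just above the floor in the cisplatin-resistant array (82.1 units) and under it in the doxorubicin-resistant and parental arrays (48.2 and 55.0 units). The list medians were 0.18 and -0.25. Of all genes, 2.83% were called higher and 2.58% lower in the cisplatin-resistant comparison, and 2.98% and 2.74% in the other.

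None of the 10 measured genes of the death receptor complex and caspase list was called in either subline, with medians of 0.04 and -0.06. Against the shares of all genes called, 2.83% higher and 2.58% lower in the cisplatin-resistant comparison and 2.98% and 2.74% in the other, a count of 0 in a list of this size is not a result about the list. The adaptor FADD had 2176 units in the cisplatin-resistant array and 2089 in the doxorubicin-resistant array, against 2571 in the parental array. The initiator caspase CASP8 had 2193, 1680 and 1911 units in the same order by its brightest probe set. By 207686_s_at it had 396, 462 and 404 units, with the doxorubicin-resistant array highest instead of lowest. Its relative CASP10 had 203, 142 and 141 units. The caspase-8 inhibitor CFLAR (c-FLIP) had 2814, 2820 and 3063 units by its brightest probe set. Among its dimmer probe sets, 211862_x_at was at log2 -1.08 in the cisplatin-resistant comparison and 0.30 in the doxorubicin-resistant comparison, and 208485_x_at at -0.48 and -1.02. No other compared CFLAR probe set was past 2-fold against parental, and the second brightest, 210563_x_at, was at -0.10 and -0.06.

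None of the 21 measured adaptors, kinases and ubiquitin enzymes was called against parental, with medians of 0.06 and -0.09, and the same shares of all genes apply to this count. TRADD, the death domain adaptor of TNFRSF1A, had 859, 590 and 893 units by its brightest probe set and 746, 593 and 656 units by 205641_s_at. The doxorubicin-resistant array was lowest by both, while the cisplatin-resistant array was below parental by the first and above it by the second. Of 17 compared NF-kB subunits, inhibitors and targets, 1 was lower in the cisplatin-resistant and none was called in the doxorubicin-resistant array, with medians of -0.07 and 0.09. That gene was CCL20, a chemokine, at 433 units in the cisplatin-resistant array and 2377 in the doxorubicin-resistant array, against 1439 in the parental array. The same shares of all genes apply to the count of the NF-kB list.

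FAS and TNFRSF10B are textbook targets of p53. Of the 9 other measured genes of the p53 list, 4 were above and 5 below parental in the cisplatin-resistant array. Their median was -0.38 there, with PMAIP1 (NOXA), a pro-apoptotic protein, called lower at 978 against 2711 units in the parental array, and none higher. With the median of its neighbours on the chromosome subtracted, PMAIP1 was at log2 -0.58. In the doxorubicin-resistant array the median was 0.14, with GDF15, a stress-induced cytokine, called higher at 8742 against 2667 units in the parental array. By its second brightest probe set GDF15 was at log2 0.33. None of the 4 compared genes of receptor shedding and O-glycosylation was called, with medians of -0.14 and -0.44. Of all genes, 2.83% were called higher and 2.58% lower in the cisplatin-resistant comparison, and 2.98% and 2.74% in the other. Beside those shares, counts this small are not a result about the p53 list or the shedding list. The protease ADAM17, which sheds TNFRSF1A, was at -0.14 and 0.20.

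**Figure D5:**
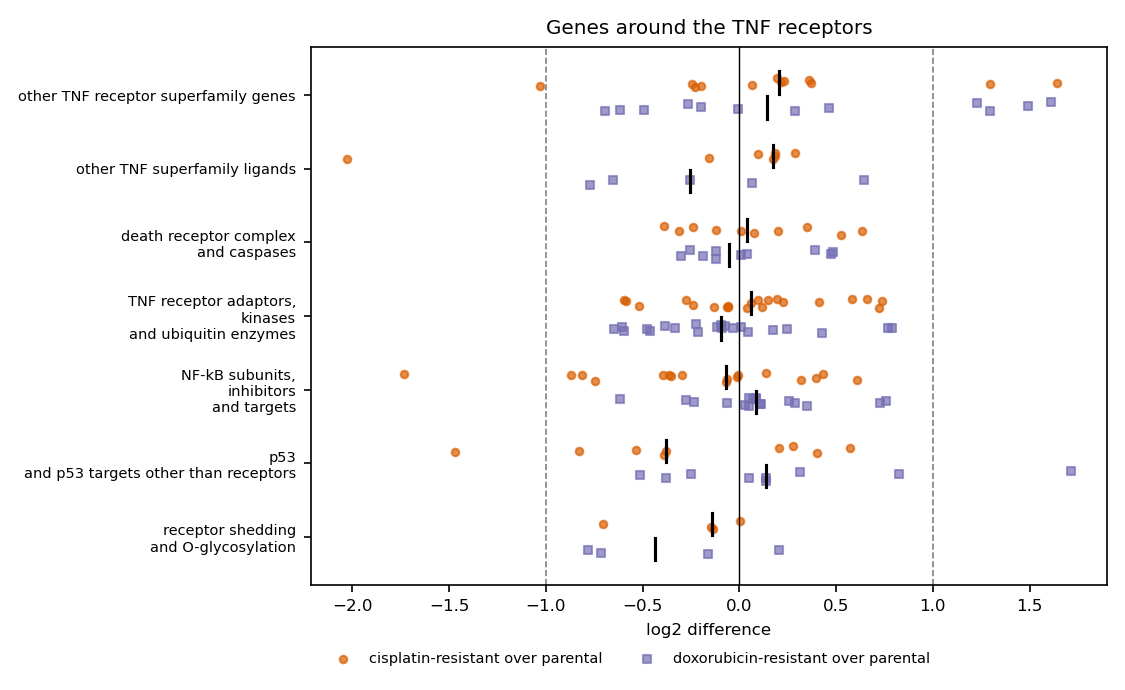
Log2 difference over parental (horizontal axis) of each compared gene of 7 lists around the TNF receptors, for the cisplatin-resistant (circles, upper row of each list) and doxorubicin-resistant (squares, lower row) subline, with the list median as a black bar and dashed lines at 2-fold. The death receptor complex and the adaptor lists lie wholly within 2-fold, while the other TNF receptor genes reach 1.64 and 1.61.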

How the data were processed

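The deposited intensity values, linear signals of 1 number per probe set and array, were made by the authors with MAS5 per the submitters' processing notes (version not given in the sources used here). With 2% of values trimmed from each end, every array averaged 499.9, as global scaling gives. Per the labels' protocols, RNA was extracted with Trizol and labelled with biotin.

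Gene symbols came from the annotation of the platform and were updated by Entrez identifier (41043 of 41097 with 1 symbol matched). Probe sets with several symbols were named for no gene. The floor was 76.9, the median of all values, and lower values were set to it before log2. A gene was represented by its brightest probe set on the mean of the log2 scale, and a gene was compared when at least 1 value exceeded the floor. Differences of log2 values were called at 2-fold, with no test. The number of arrays limits the precision.

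The members and lists were chosen with earlier results of these data known. Of 120 listed genes, 109 had a probe set, and the others are not analysed here. All members were named. From each of the other lists, up to 5 genes past 2-fold were named, with genes fixed by their link to a member. A value of ADAM17, of ENPP2 and the IFIT genes, and the dimmer CFLAR probe sets, were singled out after values were seen. Promoters are from RefSeq, where 4 of 10 members had an entry. Analysis used Python 3.11.15, numpy 2.4.6 and pandas 2.3.3. The steps were tested on simulated data, with changes put only into genes whose parental signal was well above the floor. That test does not cover genes as dim in the parental array as TNFRSF11B and FAS. Alternatives were 8 planned settings and 2 chosen after seeing the data.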

Additional observations from a re-analysis of the deposited data

Results flagged for a closer look

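By the probe sets that stand for the genes, TNFRSF10D is the 1 member whose sublines lay on opposite sides of the parental array and 2-fold apart. Its log2 difference was -1.01 (doxorubicin-resistant over cisplatin-resistant). TNFSF10 had the same pattern by 202687_s_at, which does not stand for the gene. There the cisplatin-resistant array was at 0.84 and the doxorubicin-resistant array at -0.23 over parental, with -1.06 between the sublines. Neither difference was tested, since each line has 1 array.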

How the results depend on the processing

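Of 252 recomputed values of members, over 10 settings, 238 kept their side of the 2-fold threshold, 13 fell under it, 1 passed it and no called value changed sign. TNFRSF11B stayed called in both sublines in every setting but the floor at the 75th percentile of all values, where its differences were 0.51 and 0.64 because the parental value was raised to the floor. FAS was lost with the median over all probe sets (0.50 and 0.30), the median over measured probe sets (0.69 and 0.56) and the second brightest probe set (0.88 and 0.30), since its dimmer probe sets were at the floor in the parental array. FAS had no value at the 75th percentile floor or without _s_at and _x_at probe sets. The median over measured probe sets and the second brightest probe set were settings chosen after seeing the data. The member counts of 2, 2 and 1 (cisplatin-resistant over parental, doxorubicin-resistant over parental, doxorubicin-resistant over cisplatin-resistant) were 0, 0 and 0 at the 75th percentile floor and 1, 1 and 0 with the median over all probe sets. The counts over parental were 1 and 1 without _s_at and _x_at probe sets, with the median over measured probe sets and with the second brightest probe set. The count between the sublines was 0 with the pseudocount, quantile normalization and equal median signal. Over all genes, the counts of 688, 721 and 801 were 2038, 2092 and 2189 at the 25th percentile floor, 229, 259 and 321 at the 75th, 434, 448 and 486 with the median over all probe sets, and 311, 300 and 315 with the second brightest probe set. Equal median signal moved the median of all genes by 0.11 between the sublines, and split the doxorubicin-resistant over parental calls into 482 higher and 276 lower, against 376 and 345. It split those between the sublines into 493 higher and 330 lower, against 385 and 416. TNFRSF25 reversed to -0.13 (doxorubicin-resistant over parental) without _s_at and _x_at probe sets, where only 216042_at, close to the floor, was left. No paired analysis was possible because each line has 1 array, which is also why no array could be left out.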

Other observations

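A pair of probe sets annotated to TNFRSF10C together with LOC254896 was not counted for TNFRSF10C. Probe set signals on the cisplatin-resistant array were 234 and 170.0 units. They were 163 and 112 units on the doxorubicin-resistant array and 220 and 171 units on the parental array, so above the floor on all 3, where the probe sets of TNFRSF10C alone were under it. The doxorubicin-resistant array was lowest by both, as it was for the TNFRSF10A probe sets and for TNFRSF10D by 227345_at.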
